A study of Mus musculus with 9 samples.

Results

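The 50 genes described here encode the proteins of the epithelial basement membrane (BM) and the receptors that bind it. They were taken by name as 10 laminin chains, 5 collagen IV chains, 2 nidogens, 4 BM proteoglycans, 9 integrin alpha chains, 6 integrin beta chains, 4 other matrix receptors, 6 other BM proteins and 4 hemidesmosome genes. Of these, 47 had a row among the 17562 genes of the deposited normalized table, and 44 passed the filter on low counts and were tested among 13842 genes. RNA came from the submandibular glands (SMGs) of adult male mice, with 1 library for each of 4 wildtype (WT) mice and 5 *Hs3st3a1;Hs3st3b1* double knockout (DKO) mice. Both groups were on a C57BL/6 background. The DKO mice carried a knockout allele of *Hs3st3b1* with a LacZ cassette and, on the same copy of chromosome 11, a frameshift deletion made with a zinc finger nuclease in exon 1 of *Hs3st3a1*. Both deletions were germline and so were present in each cell of the mouse, and the study kept several founder lines without saying which gave these mice. The exact ages, litters and dates of the mice were not given in the sources used here. The study asked how loss of the 3-O-sulfated domains that these enzymes add to heparan sulfate (HS) affects the gland and its BM, and the comparison below gives the transcript side of that question.

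The BM is the sheet of matrix under the acini, ducts and myoepithelial cells (MECs) of the gland and around its vessels and nerves. Laminins, which are trimers of an alpha, a beta and a gamma chain, and collagen IV each form a network, nidogens and perlecan join the networks, and perlecan, agrin and collagen XVIII carry HS chains that bind growth factors. Cells hold the sheet through integrins, which pair 1 alpha with 1 beta chain, through dystroglycan and through the collagen receptors DDR1 and DDR2, and basal epithelial cells anchor to it by hemidesmosomes.

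The labels were checked first on the deleted genes. *Hs3st3a1* counts ranged from 3 to 14 in WT and were 0 throughout DKO, and *Hs3st3b1* counts ranged from 67 to 216 in WT and from 7 to 45 in DKO. The row for neomycin resistance, which the cassette carries, held 0 counts throughout WT and 10 to 34 in DKO. Total counts were 20653492 to 37870519 in WT and 17053747 to 34683690 in DKO, and the smallest library was DKO replicate 5. The 50 genes together took 0.0523 to 0.0623% of the counts in WT and 0.0306 to 0.0505% in DKO, while the 20 most abundant genes took 52.9 to 58.7% in WT and 59.4 to 70.3% in DKO. DKO replicate 1 stood apart in 2 parotid gland genes, with 7431 CPM of *Bpifa2* against 43.3 to 79.1 CPM in the other DKO libraries and 637.5 CPM of *Amy1* against 7.10 to 14.1 CPM. Levels below are CPM, the reads of a gene relative to its TMM-scaled library. Fold changes are DKO over WT on the log2 scale with their standard errors (SE). Adjusted p-values are those of edgeR's quasi-likelihood test, adjusted by the Benjamini-Hochberg method over 13842 genes, unless DESeq2 is named.

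BM transcripts were measured at slightly lower levels in DKO than in WT across most of the list, and few single genes stood apart. A negative log2 fold change was found for 35 of the 44 genes (79.55%), against 47.45% of all genes tested. The median was -0.25 for the 44 genes and 0.01 for all genes. No member passed the adjusted threshold of 0.05 in edgeR's quasi-likelihood test, which called 0.629% of all genes. At an unadjusted p under 0.05 the same test gave 10 of the 44 lower in DKO (background 7.6%) and 1 higher, *Itgb4* (background 6.89%). DESeq2's Wald test, the tool named in the study's methods, called 5 members lower and 0 higher in DKO, against backgrounds of 2.68% lower and 1.77% higher over all genes. These were *Lama2*, *Lamb3*, *Itgb3*, *Itgb6* and *Plec*. Every DKO library lay under each WT library for 5 members, *Lama2*, *Lamb3*, *Col15a1*, *Itgb3* and *Itgb6*, where 3.51% of all genes showed this. Counted in either direction, members with separate groups numbered 3 when libraries were scaled without their 20 most abundant genes. They numbered 8 without WT replicate 1, 2 or 3 or DKO replicate 2. Without WT replicate 2 they included *Itgb4* and *Col7a1*, whose DKO libraries all lay above the remaining WT libraries. The share of all genes was not computed for these settings. With all libraries kept and TMM scaling, for no member did every DKO library lie above each WT library (background 2.49%). The fold change was under 2-fold for 43 of the 44 genes, with *Itgb3* as the exception. Without DKO replicate 5, which was the lowest DKO library for 21 of the 44 genes, 28 of 44 fold changes were negative, the median was -0.19 and DESeq2 called 2 members, *Lamb3* and *Itgb3*. Without DKO replicate 1, 33 of 44 were negative with a median of -0.24. DESeq2 called 1 to 7 members over the runs that left out 1 library, with 1 (*Lamb3*) without WT replicate 3, 2 without WT replicate 1, 3 without WT replicate 4 or DKO replicate 3, and 4 without DKO replicate 1. With libraries scaled without their 20 most abundant genes, 31 of 44 were negative with a median of -0.20, where the median of all genes was 0.05. In whole glands, fewer cells of a type and less RNA per cell cannot be told apart.

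**Figure D1:**
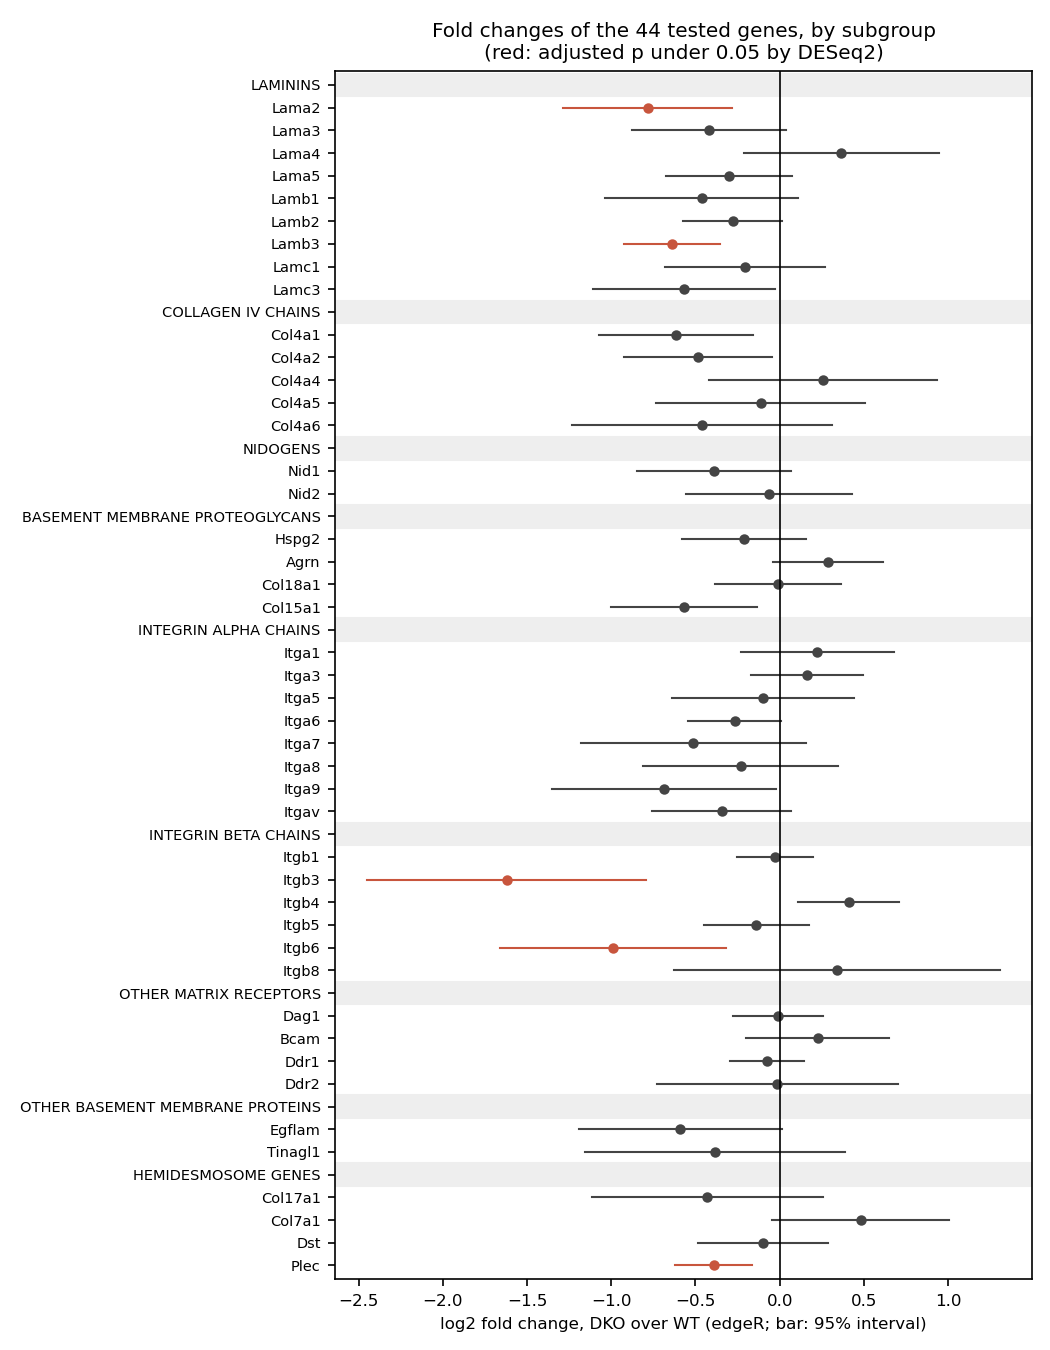
Log2 fold changes, DKO over WT, of the 44 tested genes by subgroup (points) with 95% intervals (bars), red where DESeq2's adjusted p was under 0.05. Most points lie left of the line at 0, *Itgb3* at -1.62 is farthest from it, and 11 of the 44 intervals leave out 0.

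The start regions of the members with fully separated groups are shown here because their levels, as scaled here, separated the groups in each library. Promoter sequences of RefSeq (build GRCm38.p6) were matched by symbol for 38 of the 50 genes. Of the 5, *Itgb3* had no entry. The window of *Itgb6*, which held 0 matches to the motifs named below, is not printed. Each of the 3 sequences below is the 250 bases before a start annotated by RefSeq, 5′ to 3′ on the strand of the gene, with a motif match in capitals. The *Lama2* window is chr10:27616943-27617192 on the minus strand, the *Lamb3* window is chr1:193301744-193301993 on the plus strand and the *Col15a1* window is chr4:47207762-47208011 on the plus strand. RefSeq gives *Lamb3* 2 starts, of which 1 is shown, and the *Lamb3* and *Lama2* windows lie inside the longer gene spans that GENCODE M21 gives.
Lama2: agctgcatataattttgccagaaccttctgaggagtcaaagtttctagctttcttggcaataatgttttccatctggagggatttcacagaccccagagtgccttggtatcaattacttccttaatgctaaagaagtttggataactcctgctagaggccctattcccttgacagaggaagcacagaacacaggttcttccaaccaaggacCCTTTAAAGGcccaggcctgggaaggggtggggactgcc
Lamb3: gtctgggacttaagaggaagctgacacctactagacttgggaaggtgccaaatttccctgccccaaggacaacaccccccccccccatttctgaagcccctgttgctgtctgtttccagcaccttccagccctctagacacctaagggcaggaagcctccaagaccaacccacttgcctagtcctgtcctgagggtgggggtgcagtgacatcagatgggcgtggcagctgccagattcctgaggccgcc
Col15a1: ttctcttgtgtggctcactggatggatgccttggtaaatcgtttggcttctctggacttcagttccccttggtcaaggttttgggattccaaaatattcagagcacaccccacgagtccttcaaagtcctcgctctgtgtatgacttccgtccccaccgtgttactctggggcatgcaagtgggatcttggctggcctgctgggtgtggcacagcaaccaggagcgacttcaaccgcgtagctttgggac
The capitals in the *Lama2* window mark a CArG box, the element bound by serum response factor, whose first base lies 39 bases before the start. On both strands, 1.47% of the 32851 mouse windows of this length hold a CArG box. The 3 windows hold none of the other motifs searched, which were AP-1 (TGANTCA, in 6.75% of all windows), TEAD (GGAATG, 12.6%), the GC box (GGGCGG, 32.7%), the CCAAT box (CCAAT, 33.9%) and the TATA box (TATAAA, 12.4%). A match or its absence describes these letters only.

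Nearly all laminin chains were measured lower in DKO. Of the 9 chains tested, 8 had a negative fold change, with a median of -0.42, and 3 were lower at an unadjusted p under 0.05, of which DESeq2 called *Lama2* and *Lamb3*. Their summed level was 84.9, 75.7, 91.0 and 68.9 CPM in WT replicates 1 to 4 and 57.0, 58.4, 56.5, 67.4 and 46.4 CPM in DKO replicates 1 to 5. All 5 DKO sums thus lay under the lowest WT sum, with DKO replicate 4 the nearest to it.

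*Lamb3* (ENSMUSG00000026639, chr1:193207699-193343878, plus strand, GRCm38), the beta chain of laminin-332 in epithelial anchorage, measured 35.0, 30.9, 36.1 and 26.8 CPM in WT and 19.2, 20.3, 17.2, 25.5 and 21.2 CPM in DKO. The groups did not overlap, although the highest DKO library came within 2 CPM of the lowest WT library. The log2 fold change was -0.64 (SE 0.13), a fold of 0.642, and edgeR's quasi-likelihood test gave 0.0506 as its adjusted p, just above the threshold. DESeq2 gave an adjusted p of 0.00143, and the adjusted p ranged from 0.00143 to 0.199 over 23 alternative settings. DESeq2 called *Lamb3* in 9 of 9 runs that left out 1 library each.

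*Lama3*, the alpha chain that pairs with *Lamb3* in laminin-332, measured 4.91, 3.25, 5.86 and 3.43 CPM in WT and 3.66, 3.99, 3.02, 2.81 and 2.83 CPM in DKO. Here 3 DKO libraries lay under all WT libraries and the other two lay among them. Its log2 fold change was -0.42 (SE 0.21, adjusted p = 0.392 by edgeR's quasi-likelihood test, 0.247 to 0.744 over the alternatives).

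*Lama2* (ENSMUSG00000019899, chr10:26980036-27619758, minus strand) encodes the alpha chain of laminin-211, known from the BMs of muscle and nerve. Its levels were 4.91, 4.74, 4.07 and 3.99 CPM in WT and 3.43, 2.55, 2.11, 3.16 and 1.38 CPM in DKO, with no overlap. The widest gap from WT was in DKO replicate 5. The log2 fold change was -0.78 (SE 0.23), and the adjusted p was 0.132 in edgeR's quasi-likelihood test and 0.0332 in DESeq2's test (0.0331 to 0.376 over the alternatives), and DESeq2 called it in 2 of the 9 runs that left out 1 library. Reads from shared bases cannot be told apart from those of the antisense gene *Gm48084*, which shares 3.86% of the exonic length of *Lama2*, since the libraries were unstranded.

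*Lama5*, the alpha chain of laminin-511 in most epithelial BMs, measured 5.00, 9.02, 8.20 and 6.70 CPM in WT and 5.74, 5.35, 6.14, 6.84 and 5.30 CPM in DKO. The DKO values all fell inside the WT range (log2 fold change -0.30, SE 0.17, adjusted p = 0.470 by edgeR's quasi-likelihood test, 0.348 to 0.724 over the alternatives). *Lamb2*, the beta chain of kidney and neuromuscular laminins, measured 7.23, 7.19, 8.64 and 6.87 CPM in WT and 5.04, 6.09, 7.10, 6.32 and 6.38 CPM in DKO. Of its DKO libraries, 4 lay under the lowest WT library (log2 fold change -0.28, SE 0.13, adjusted p = 0.367 by edgeR's quasi-likelihood test, 0.281 to 0.678 over the alternatives).

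Among the remaining laminin chains, *Lamc3* had a log2 fold change of -0.57 (SE 0.25), *Lamb1* of -0.46 (SE 0.26) and *Lamc1*, the gamma chain of most laminins, of -0.21 (SE 0.22). DESeq2 called *Lamc3* in 1 run that left out 1 library, without DKO replicate 4. *Lamb1* was 4.64 CPM in DKO replicate 5 and 11.9 to 13.1 CPM in the other DKO libraries, and its log2 fold change was -0.57 to -0.28 over the runs that left out 1 library. *Lama4*, the alpha chain of vessels, was the 1 laminin chain with a positive fold change, 0.37 (SE 0.27), and its values overlapped. *Lama1*, which is known from embryonic BMs, had 4, 3, 9 and 7 counts in WT and 5, 0, 0, 0 and 0 counts in DKO, too few for the test.

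Levels of different chains were compared per kilobase of exon. *Lama5* made up 43.7% ± 8.53 (SD, n = 4) of the summed alpha chains in WT and 46.2% ± 4.10 (SD, n = 5) in DKO, followed by *Lama3* with 28.0% and 27.2%. *Lama2* took 18.9% ± 2.87 in WT and 13.6% ± 3.56 in DKO, and *Lama4* took 7.92% ± 2.22 in WT and 12.8% ± 3.53 in DKO. Among beta chains *Lamb3* was the most abundant in each library, with 61.8 to 66.5% of the family in WT and 51.5 to 67.9% in DKO. The make-up of the laminin alpha family was thus led by *Lama5* in WT replicates 2, 3 and 4 and in all DKO libraries, while *Lama3* exceeded it in WT replicate 1.

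**Figure D2:**
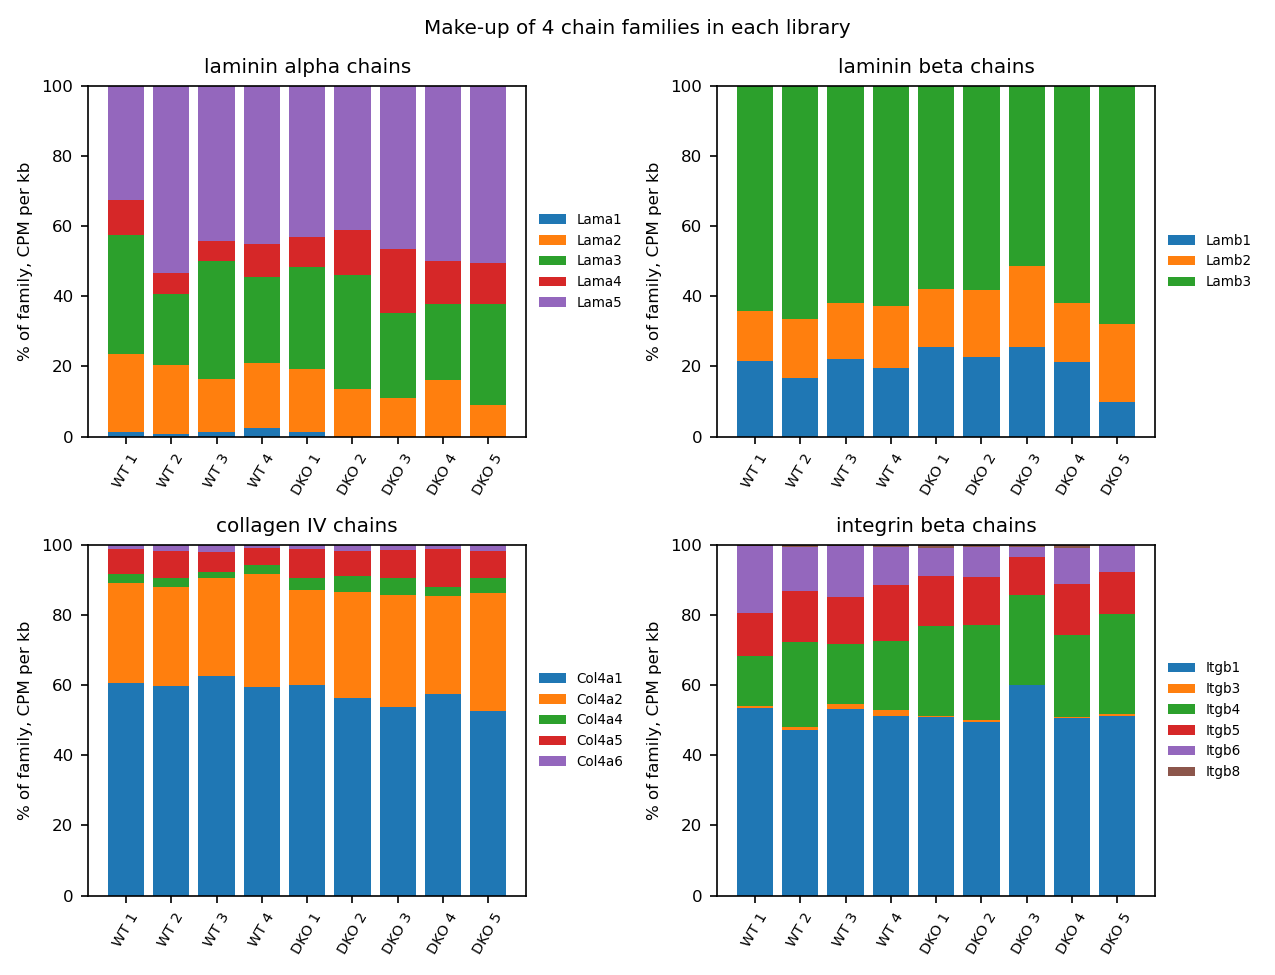
Share of each chain in its family (vertical axis, percent of the summed CPM per kilobase) in each WT and DKO library (horizontal axis) for laminin alpha, laminin beta, collagen IV and integrin beta chains. *Lamb3*, *Col4a1* and *Itgb1* are the largest part of their families in all 9 libraries, and the *Itgb6* part is 10.8 to 19.2% in WT and 2.77 to 10.4% in DKO.

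Collagen IV chains followed the laminins in direction. Of the 5 chains, 4 had a negative fold change, with a median of -0.46, and none was called by edgeR's quasi-likelihood test or DESeq2, while 2 were lower at an unadjusted p under 0.05. These were *Col4a1* and *Col4a2*, which form the collagen IV trimer of nearly all BMs and lie head to head on chromosome 8. *Col4a1* (ENSMUSG00000031502, chr8:11198423-11312826, minus strand) measured 25.9, 27.0, 20.8 and 27.4 CPM in WT and 16.1, 23.3, 12.9, 19.8 and 10.1 CPM in DKO. Its groups overlapped in DKO replicate 2, and the log2 fold change was -0.62 (SE 0.21, adjusted p = 0.194 by edgeR's quasi-likelihood test, 0.0904 to 0.442 over the alternatives). *Col4a2* (ENSMUSG00000031503, chr8:11312805-11449287, plus strand) measured 10.8, 11.3, 8.22 and 13.2 CPM in WT and 6.42, 11.1, 6.74, 8.58 and 5.73 CPM in DKO. DKO replicates 2 and 4 lay within its WT range (log2 fold change -0.49, SE 0.20, adjusted p = 0.291 by edgeR's quasi-likelihood test, 0.146 to 0.546 over the alternatives). Over the 9 runs that left out 1 library, DESeq2 called *Col4a1* in 2 and *Col4a2* in 1. The ratio of *Col4a1* to *Col4a2* per kilobase was 1.84 to 2.25 in WT and 1.56 to 2.22 in DKO, a log2 difference of -0.16 (exact permutation test over the 9 libraries, p = 0.214).

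The chains of other collagen IV trimers were at lower levels. *Col4a5* had a log2 fold change of -0.11 (SE 0.28), *Col4a6*, its partner in smooth muscle and epithelial BMs, of -0.46 (SE 0.35), and *Col4a4* of 0.26 (SE 0.31), and the values of all these overlapped. The sign of *Col4a5* turned with voom weights and when WT replicate 2 or DKO replicate 5 was left out. *Col4a5* was 0.0809 to 0.130 of *Col4a1* per kilobase in WT and 0.128 to 0.188 in DKO. This log2 difference of 0.51 had p = 0.0159 in the exact permutation test, and 0.127 after Benjamini-Hochberg adjustment over the 16 chain ratios computed, of which none passed.

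*Nid1*, which links the laminin and collagen IV networks, measured 5.76, 5.54, 5.21 and 5.28 CPM in WT and 4.13, 5.22, 4.40, 4.70 and 2.10 CPM in DKO. DKO replicate 2 reached the lowest WT value and DKO replicate 5 stood far below the others (log2 fold change -0.39, SE 0.21, adjusted p = 0.437 by edgeR's quasi-likelihood test, 0.371 to 0.715 over the alternatives). *Nid2*, its paralog, had a log2 fold change of -0.06 (SE 0.23) with values of 1.56 to 2.92 CPM in WT and 1.60 to 2.65 CPM in DKO, and its sign turned under some alternatives. *Nid2* shares 437 exonic bases, 8.45% of its exonic length, with *Rtraf* on the opposite strand. Reads from these shared bases cannot be assigned to either gene in unstranded libraries.

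The 4 BM proteoglycan genes had 0 calls by edgeR's quasi-likelihood test or DESeq2, and 1, *Col15a1*, was lower at an unadjusted p under 0.05. The proteins of *Hspg2*, *Agrn* and *Col18a1* carry HS, the substrate of the deleted enzymes. *Hspg2*, which encodes perlecan, measured 4.60, 5.35, 5.33 and 6.14 CPM in WT and 4.37, 5.47, 4.31, 5.53 and 3.34 CPM in DKO, with overlap in DKO replicates 2 and 4. Its log2 fold change was -0.21 (SE 0.17, 95% interval -0.58 to 0.16). *Agrn*, which encodes agrin, measured 5.85, 7.61, 5.41 and 7.21 CPM in WT and 7.15, 9.67, 7.52, 7.08 and 8.34 CPM in DKO. Only DKO replicates 2 and 5 exceeded the highest WT library, and the log2 fold change was 0.29 (SE 0.15, interval -0.04 to 0.61). *Col18a1*, which encodes collagen XVIII and its endostatin fragment, measured 7.23, 8.49, 7.29 and 8.41 CPM in WT and 8.47, 5.63, 8.84, 9.76 and 6.09 CPM in DKO. Its DKO values lay on both sides of WT (log2 fold change -0.01, SE 0.17, interval -0.39 to 0.36), with a sign that turned when libraries were scaled without their 20 most abundant genes. Perlecan and agrin transcripts thus had fold changes of opposite sign, and *Hspg2* was 0.457 to 0.638 of *Agrn* per kilobase in WT and 0.261 to 0.508 in DKO. The log2 difference of -0.52 had p = 0.0317 in the exact permutation test and 0.127 after adjustment over the 16 ratios.

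*Col15a1* (ENSMUSG00000028339, chr4:47208161-47313167, plus strand), a collagen of the BM zone that carries chondroitin sulfate chains, measured 4.73, 4.05, 3.78 and 4.16 CPM in WT and 2.29, 3.62, 2.84, 3.36 and 1.89 CPM in DKO. The groups did not overlap, with 3.62 CPM in the highest DKO library and 3.78 CPM in the lowest WT library. Its log2 fold change was -0.57 (SE 0.20, adjusted p = 0.211 by edgeR's quasi-likelihood test, 0.127 to 0.499 over the alternatives), and DESeq2 did not call it (adjusted p = 0.127).

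**Figure D3:**
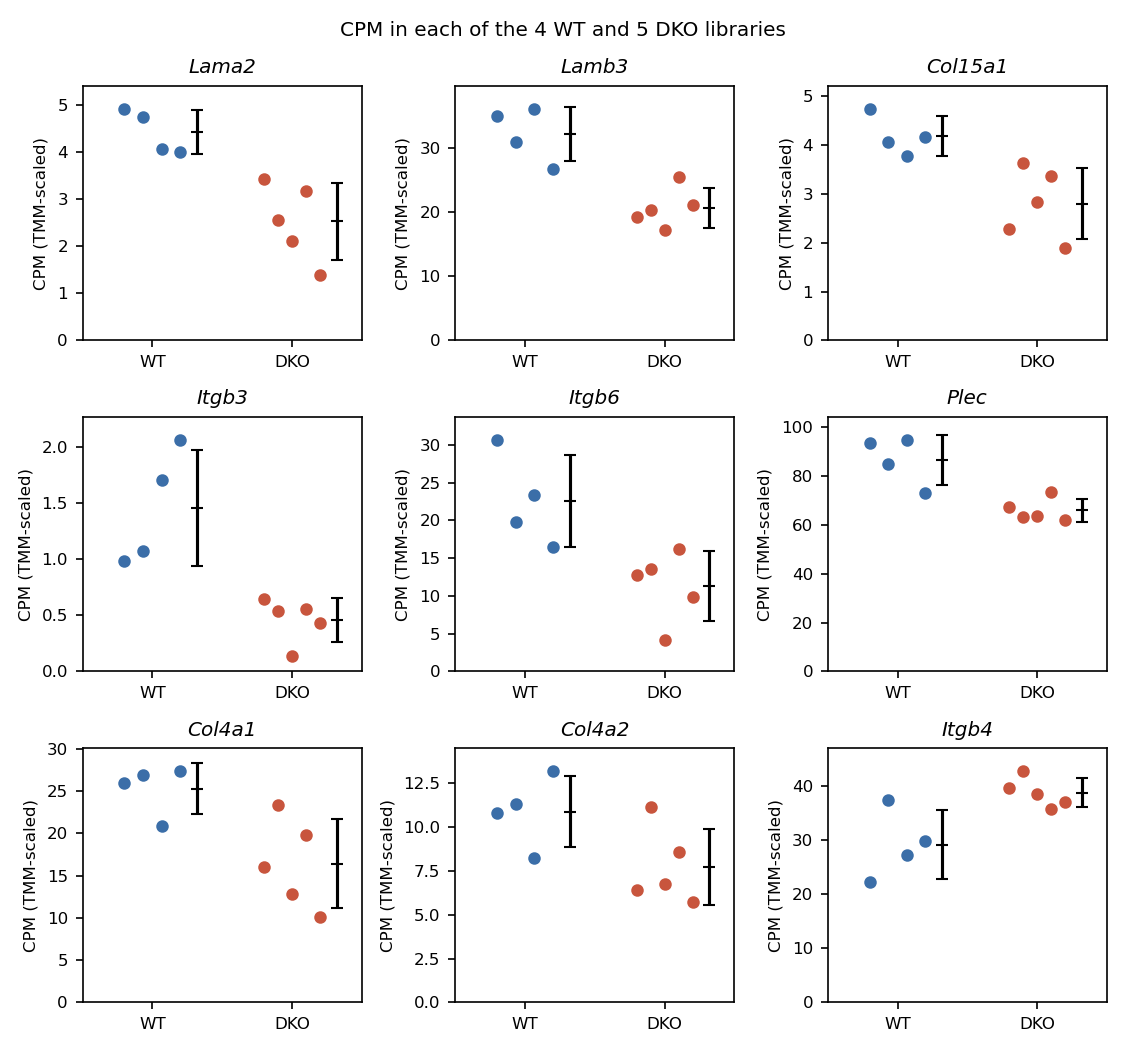
CPM of 9 genes in each WT and DKO library (points), with the mean and SD of each group (bars). The DKO points of *Lama2*, *Lamb3*, *Col15a1*, *Itgb3* and *Itgb6* lie under all WT points, those of *Plec*, *Col4a1* and *Col4a2* overlap with WT, and 3 of the 5 DKO points of *Itgb4* lie above all WT points.

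The integrin beta chains held both the largest negative fold changes and the single member that was higher at an unadjusted p under 0.05. *Itgb3* (ENSMUSG00000020689, chr11:104608000-104670476, plus strand), which pairs with alpha v and with the platelet alpha IIb chain, was at a low level, with 0.982, 1.07, 1.70 and 2.06 CPM in WT and 0.645, 0.535, 0.137, 0.553 and 0.435 CPM in DKO. The groups did not overlap, and the spread among WT libraries was more than 2-fold. The log2 fold change was -1.62 (SE 0.38, 95% interval -2.45 to -0.79), a fold of 0.325, and the adjusted p was 0.0654 in edgeR's quasi-likelihood test and 0.00455 in DESeq2's test (0.00455 to 0.217 over the alternatives). The exact permutation test gave p = 0.00794, the smallest it can give with 4 and 5 libraries. DESeq2 called it in 7 of the 9 runs that left out 1 library.

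*Itgb6* (ENSMUSG00000026971, chr2:60598292-60722643, minus strand), the epithelial partner of alpha v in the integrin that activates latent TGF-beta, measured 30.6, 19.8, 23.4 and 16.5 CPM in WT and 12.7, 13.6, 4.22, 16.2 and 9.79 CPM in DKO. The groups did not overlap, but 16.2 CPM in DKO replicate 4 lay next to 16.5 CPM in WT replicate 4, and DKO replicate 3 was the lowest. Its log2 fold change was -0.99 (SE 0.31), and the adjusted p was 0.154 in edgeR's quasi-likelihood test and 0.0352 in DESeq2's test (0.0326 to 0.458 over the alternatives). DESeq2 called it in 6 of the 9 runs that left out 1 library. Within the beta chains per kilobase, *Itgb6* took 14.3% ± 3.63 (SD, n = 4) in WT and 7.45% ± 2.84 (SD, n = 5) in DKO.

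*Itgb4* (ENSMUSG00000020758, chr11:115974709-116008412, plus strand), the beta chain of the hemidesmosome integrin, measured 22.3, 37.4, 27.2 and 29.8 CPM in WT and 39.7, 42.7, 38.5, 35.7 and 37.1 CPM in DKO. WT replicate 2 lay within the DKO range and the other WT libraries lay under it. The log2 fold change was 0.41 (SE 0.14, adjusted p = 0.186 by edgeR's quasi-likelihood test, 0.0469 to 0.470 over the alternatives), and without WT replicate 2 it was 0.55 and called by both tools. *Itga6*, the alpha chain that pairs with *Itgb4*, measured 24.3, 18.6, 20.3 and 21.1 CPM in WT and 20.1, 18.0, 14.1, 19.0 and 16.2 CPM in DKO, a log2 fold change of -0.27 (SE 0.13, adjusted p = 0.362 by edgeR's quasi-likelihood test, 0.282 to 0.731 over the alternatives). Its DKO values overlapped with WT in replicates 1 and 4. The ratio of *Itga6* to *Itgb4* per kilobase was 0.387 to 0.847 in WT and 0.285 to 0.414 in DKO, a log2 difference of -0.71 (exact permutation test, p = 0.0238, and 0.127 after adjustment over the 16 ratios).

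*Itgb1*, the shared beta chain of most laminin and collagen receptors, had the highest level of all 50 genes per kilobase in each group. It measured 49.0, 42.7, 49.0 and 45.2 CPM in WT and 45.9, 45.4, 52.4, 45.2 and 38.7 CPM in DKO. Its groups overlapped, with a log2 fold change of -0.03 (SE 0.10, 95% interval -0.25 to 0.20) whose sign turned when libraries were scaled without their 20 most abundant genes. The alpha v partners *Itgb5* and *Itgb8* had log2 fold changes of -0.14 (SE 0.14) and 0.34 (SE 0.44), both with overlap.

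The 8 integrin alpha chains tested had a median of -0.25 with 6 negative fold changes, and none was called by edgeR's quasi-likelihood test or DESeq2. *Itga9*, a tenascin receptor chain, was lower at an unadjusted p under 0.05 (log2 fold change -0.69, SE 0.30), with levels of 0.580 to 1.16 CPM in WT and 0.435 to 0.870 CPM in DKO. Fold changes were -0.51 for *Itga7*, a laminin receptor chain of muscle, -0.35 for *Itgav*, the partner of several beta chains, -0.23 for *Itga8*, the nephronectin receptor chain, -0.10 for *Itga5*, the fibronectin receptor chain, 0.16 for *Itga3* and 0.22 for *Itga1*. In all these the groups overlapped. *Itga3* and *Itga6*, which are epithelial laminin receptor chains, together led the alpha chains per kilobase, with 31.8% and 41.2% of the family in WT and 38.4% and 36.7% in DKO. *Itga2* had at most 4 counts in any library. *Itga3*, *Itgb3* and *Itgb4* lie on chromosome 11, as do both deleted genes.

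The other matrix receptors had the smallest fold changes, with a median of -0.01 over 4 genes and 0 calls by edgeR's quasi-likelihood test or DESeq2 and 0 at an unadjusted p under 0.05. *Dag1*, which encodes dystroglycan, measured 32.5, 30.1, 36.5 and 32.9 CPM in WT and 30.6, 30.7, 42.1, 31.4 and 29.1 CPM in DKO. Its log2 fold change was -0.01 (SE 0.12, 95% interval -0.28 to 0.26), and the sign turned under other settings, among them the scaling without the 20 most abundant genes. The fold changes were -0.08 (SE 0.10) for *Ddr1*, 0.23 (SE 0.19) for *Bcam*, the Lutheran laminin receptor, and -0.01 (SE 0.33) for *Ddr2*, which also turned sign under that scaling. The collagen receptor *Ddr1* was 20.5 to 52.2 times *Ddr2* per kilobase over the 9 libraries.

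Among hemidesmosome genes, *Plec* (ENSMUSG00000022565, chr15:76170974-76232574, minus strand), which encodes the linker plectin, measured 93.6, 84.8, 94.6 and 72.8 CPM in WT and 67.3, 63.1, 63.6, 73.6 and 61.8 CPM in DKO. DKO replicate 4 lay just above WT replicate 4 and the other DKO libraries lay under all WT libraries. Its log2 fold change was -0.39 (SE 0.11), and the adjusted p was 0.0992 in edgeR's quasi-likelihood test and 0.0192 in DESeq2's test (0.0192 to 0.321 over the alternatives), and DESeq2 called it in 3 of the 9 runs that left out 1 library. *Plec* shares 205 exonic bases with *Parp10*. *Dst*, the related linker, had a log2 fold change of -0.10 (SE 0.18), *Col17a1*, which encodes BP180, of -0.43 (SE 0.31), and *Col7a1*, which encodes the anchoring fibril collagen, of 0.48 (SE 0.24). These 3 genes overlapped between the groups. For *Col7a1* the log2 fold change was 0.33 to 0.80 over the runs that left out 1 library. DESeq2 called it higher in 1 of these 9 runs, without WT replicate 2.

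Of the other BM proteins, *Tinagl1*, a laminin-binding matrix protein, held rank 2 of the 50 genes by level per kilobase in WT. It measured 30.5, 20.6, 37.7 and 31.9 CPM in WT and 24.5, 7.49, 39.9, 18.1 and 26.0 CPM in DKO. The DKO values lay on both sides of WT (log2 fold change -0.38, SE 0.35, adjusted p = 0.694 by edgeR's quasi-likelihood test, 0.268 to 0.867 over the alternatives). *Egflam*, which encodes the dystroglycan ligand pikachurin, had a log2 fold change of -0.59 (SE 0.28). The Fraser complex genes *Fras1*, *Frem1* and *Frem2* and the integrin ligand *Npnt* did not pass the filter, with at most 11 counts in any library.

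Ranked by WT level per kilobase, *Itgb1* (10.5 to 12.0 CPM per kilobase) came first and *Frem2*, at 0, last. It was followed by *Tinagl1* (4.73 to 8.64), *Dag1* (4.73 to 5.75), *Lamb3* (4.05 to 5.46), *Plec* (4.02 to 5.23) and *Ddr1* (3.75 to 4.85), whose ranges overlapped from 1 gene to the next. Of the 49 neighbouring pairs in this order, 4 had ranges that did not overlap in WT. In DKO *Itgb4* held rank 2, with 5.09 to 6.09 CPM per kilobase against 3.18 to 5.34 in WT, and *Lamb3* rank 7, with 2.60 to 3.85.

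Genes that make, process or read the BM were taken from 4 further lists. In edgeR's quasi-likelihood test 0 genes of each list were called. Over all genes, this test gave an unadjusted p under 0.05 for 7.6% lower and 6.89% higher in DKO. DESeq2 called 2.68% of all genes lower and 1.77% higher, and 3.51% had groups without overlap that were lower in DKO. For collagen and laminin production (14 of 16 tested) the median log2 fold change was -0.03, with 3 genes lower at an unadjusted p under 0.05 and 1 called lower by DESeq2. The called gene was *Sparc*, a matrix protein that binds collagen IV, with 98.7 to 143 CPM in WT and 35.8 to 103 CPM in DKO (log2 fold change -0.86, SE 0.26, DESeq2 adjusted p = 0.0282). The other two were *Serpinh1*, the collagen chaperone HSP47 (-0.89, SE 0.30), and the crosslinking enzyme *Tgm2* (-0.51, SE 0.19). For matrix proteases and inhibitors (14 of 17 tested) the median was -0.12, with 1 gene lower and 1 higher at an unadjusted p under 0.05. Both counts are near the shares over all genes. *Timp2*, a metalloproteinase inhibitor, was called lower by DESeq2 (adjusted p = 0.0109), with 29.1 to 34.2 CPM in WT and 18.4 to 27.1 CPM in DKO and no overlap, while *Mmp11* had a log2 fold change of 0.67 (SE 0.30). Of the integrin adaptors (19 of 21 tested, median -0.09), *Tes*, which encodes the focal adhesion protein testin, was called lower by DESeq2 (log2 fold change -0.93, SE 0.22, adjusted p = 0.00319), and *Vcl*, which encodes vinculin, had a log2 fold change of -0.59 (SE 0.17) with no overlap between groups. The dystroglycan complex and its glycosylation enzymes (22 of 23 tested) had a median of 0.05 with 0 genes at an unadjusted p under 0.05 in either direction and 0 called by DESeq2.

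**Figure D4:**
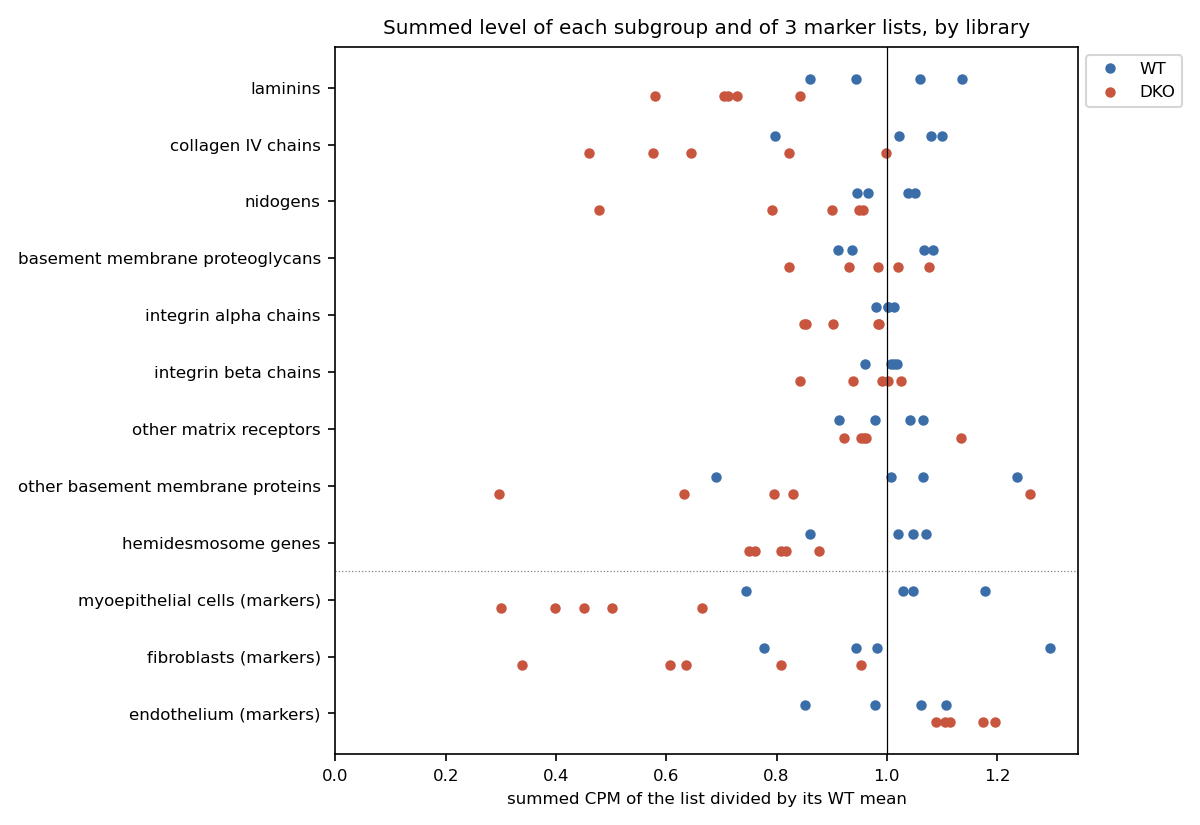
Summed CPM of each BM subgroup and of 3 marker lists in each library, divided by the WT mean of that list (horizontal axis), with WT in blue and DKO in red. The laminin and MEC sums do not overlap between the groups, the collagen IV sums overlap in DKO replicates 2 and 4, and the endothelial sums lie at or above the upper part of the WT range.

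Markers of the cells that make these proteins differed between the groups and are given beside them. The 12 MEC markers summed to 750.5 to 1185 CPM in WT and 302.7 to 669.7 CPM in DKO without overlap. All 11 that were tested had a negative fold change (median -1.06), 5 were called lower by edgeR's quasi-likelihood test and 9 by DESeq2. Much of this list is MEC genes that the study reports as reduced in DKO glands, so these counts are not independent of that report. The smallest of these fold changes was that of *Trp63* (-0.12, SE 0.18). DKO replicate 3 had the lowest MEC sum and DKO replicate 4 the highest, and the same libraries were the lowest and highest of DKO for *Lamb3* and *Itgb6*. Over the 44 tested genes, DKO replicate 3 was the lowest DKO library for 8 and DKO replicate 4 the highest for 17. The fibroblast markers summed to 364.9 to 608.9 CPM in WT and 158.7 to 448.1 CPM in DKO. Of these, 7 of 8 were negative and 0 were called by edgeR's quasi-likelihood test (4 at an unadjusted p under 0.05) or DESeq2. DKO replicate 5 had the lowest fibroblast sum of DKO, and also the lowest mural, Schwann, leukocyte and adipocyte sums. It was the lowest DKO library for 21 of the 44 tested genes, among them *Lama2*, *Lamb1*, *Nid1*, *Col4a1* and *Col15a1*. Endothelial markers summed to 49.7 to 64.6 CPM in WT and 63.4 to 69.7 CPM in DKO with 9 of 11 positive, and mural cell markers to 25.8 to 30.0 CPM and 21.0 to 33.7 CPM. Schwann cell markers summed to 52.0 to 59.6 CPM in WT and 47.3 to 70.1 CPM in DKO. Acinar markers summed to 129570 to 200590 CPM in WT and 208580 to 350340 CPM in DKO, and duct markers to 14087 to 17157 CPM in WT and 13304 to 14064 CPM in DKO, both without overlap. Leukocyte markers (68.1 to 117.4 CPM in WT, 45.8 to 109.0 in DKO), adipocyte markers (3.40 to 5.35, 2.68 to 8.20) and skeletal muscle markers (3.36 to 7.99, 2.72 to 4.79) overlapped in their sums, and the muscle genes *Myh4*, *Myh1* and *Pvalb* had 0 counts in each library. Of the muscle list, *Acta1*, the skeletal actin, did not overlap, with 0.994 to 5.22 CPM in WT and 0.0916 to 0.508 CPM in DKO, and was called lower by edgeR's quasi-likelihood test (log2 fold change -3.65, SE 0.51, adjusted p = 0.0385) and by DESeq2. *Ckm* went the other way, with 0.982 to 2.34 CPM in WT and 1.88 to 3.34 CPM in DKO. Its log2 fold change was 0.61 (SE 0.27, unadjusted p = 0.0397 by edgeR's quasi-likelihood test), and neither tool called it. *Mylpf* had a log2 fold change of -0.78 (SE 0.44). The list for the neighbouring sublingual and parotid glands summed to 32275 to 58399 CPM in WT and 62618 to 102540 CPM in DKO, nearly all of it from *Prol1*, which the SMG also expresses. In that list *Bpifa2* was 4.42 to 26.5 CPM in WT and *Amy1* 17.3 to 25.5 CPM, beside the high values in DKO replicate 1 given above, and *Dmbt1* had 0 counts. The part of these cells in the BM values was not tested.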

How the data were processed

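RNA was measured by unstranded Nextera XT sequencing on a HiSeq2500 in 4 WT and 5 DKO male SMGs, and samples were grouped by their genotype labels. The authors deposited raw read counts on 48733 rows, the same counts for a filtered set of 17562 rows, and these filtered counts as a signal scaled to the TMM library size in CPM units. The submitters' processing notes name STAR 2.5.2a, DESeq2, edgeR and limma and the builds GRCh38, GRCm38 and mm10 with no roles, and the counting tool, annotation and filter are not given in the sources used here. Of the 158058 scaled values, 100% gave back whole counts within 0.01, and a count test on these filtered counts called 13 genes.

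For the tests, edgeR 4.0.16 in R 4.3.3 took the unfiltered counts with TMM factors and filterByExpr (minimum count 10, minimum total 15, leaving 13842 genes). Genotype alone entered its legacy quasi-likelihood model. Its prior degrees of freedom were 4.71 and its common biological coefficient of variation was 0.235. DESeq2 1.42.0 and limma 3.58.1 gave alternatives. The SE of a log2 fold change is its size over the root of its F statistic. Exact permutation tests were two-sided and enumerated all assignments of 4 and 5 libraries, on log2(CPM + 0.5) or on log2 ratios. Levels per kilobase used exon lengths of GENCODE M21 (GRCm38). Total counts per library, given above, set the precision, and genes of few counts are given as counts. The scripts were tested on simulated data. Figures were drawn with matplotlib 3.10.9.

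The members and lists were chosen with earlier results of these data known. All 50 members are accounted for, and values in each library are given for members called by edgeR or DESeq2, members whose groups do not overlap, the member of highest level per kilobase in each subgroup, and the BM genes named in the study's text. *Itgb4* was added to these after its values were seen. Other genes are named only where a count in a list is 5 or fewer. Alternatives changed the scaling, tool, filter, table, pseudocount, design or libraries. Another tool brings its own scaling, and limma-trend on the deposited CPM changes tool, table, filter and scale together. Female glands were not analysed here.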

Additional observations from a re-analysis of the deposited data

Results flagged for a closer look

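In 6 of the 88 groups of libraries checked (44 genes in 2 genotypes), 1 library stood far from the others by Dixon's criterion, and chance alone flags about 1 in 20 groups. Of the 6, 4 were DKO replicate 5, the smallest library. There *Lamb1* measured 4.64 CPM against 11.9 to 13.1 CPM in the other DKO libraries, *Lamc1* 1.96 CPM against 3.60 to 4.19 CPM, *Nid1* 2.10 CPM against 4.13 to 5.22 CPM, and *Itgb8* 0.218 CPM against 1.28 to 1.79 CPM. In DKO replicate 3 *Dag1* measured 42.1 CPM against 29.1 to 31.4 CPM. In WT replicate 3 *Col4a4* measured 0.773 CPM against 1.47 to 1.64 CPM. The fibroblast marker sum was also lowest in DKO replicate 5, at 158.7 CPM against 284.7 to 448.1 CPM in the other DKO libraries. The mural, Schwann, leukocyte and adipocyte sums were likewise lowest there among DKO libraries. The part of these cells in the flagged values was not tested.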

How the results depend on the processing

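The number of members called depended on the tool and the filter, with edgeR's quasi-likelihood test as the main test. It was 0 as reported and with 9 alternatives (DESeq2 size factors, upper-quartile factors, scaling without the 20 most abundant genes, voom, the robust fit, the filtered table, limma-trend with a pseudocount of 0.5 or 2, and a replicate block), 1 without the legacy option and with a filter of 1 CPM in 4 libraries (*Lamb3*), 2 without a filter (*Lamb3* and *Itgb3*) and 5 with DESeq2 on the same or on all rows. In edgeR's quasi-likelihood test, leaving out 1 library gave 0 to 2, with *Lamb3* and *Itgb4* called without WT replicate 2 and *Lamb3* without DKO replicate 4. Pathway genes called were 0 as reported, 1 without a filter, 3 with DESeq2 on either set of rows and 0 to 2 with 1 library left out. With 1 library left out, DESeq2's 5 members became 1 to 7, while its calls over all genes ranged from 257 to 889. It called 1 member without WT replicate 3, 2 without WT replicate 1 or DKO replicate 5, and 3 without WT replicate 4 or DKO replicate 3. Members with separate groups, counted in either direction, became 3 with scaling without the 20 most abundant genes and 5 to 8 with 1 library left out. Over all genes, edgeR called 87 and the alternatives, apart from the DESeq2 runs with 1 library left out, 0 to 616.

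The signs of genes near 0 turned. With scaling without the 20 most abundant genes the log2 fold change became 0.025 for *Col18a1*, 0.012 for *Itgb1*, 0.026 for *Dag1* and 0.034 for *Ddr2*. With voom it became 0.037 for *Col4a5*. With the replicate block it became 0.055 for *Nid2*, 0.039 for *Col18a1*, 0.035 for *Itga5*, 0.023 for *Itgb1*, 0.020 for *Dag1* and 0.041 for *Ddr2*. With 1 library left out it ranged from -0.307 to 0.041 for *Col4a5*, -0.203 to 0.083 for *Nid2*, -0.108 to 0.086 for *Col18a1*, -0.230 to 0.023 for *Itga5*, -0.083 to 0.024 for *Itgb1*, -0.115 to 0.042 for *Dag1*, -0.251 to 0.207 for *Ddr2* and -0.171 to 0.012 for *Dst*. The log2 difference of the per-kilobase ratio ranged likewise from -0.362 to 0.119 for *Lama3* to *Lama5*, -0.403 to 0.046 for *Lamb1* to *Lamb2* and -0.145 to 0.196 for *Ddr1* to *Ddr2*. The cause was not tested. The labels do not say that replicate numbers pair the samples, and libraries were treated as unpaired. Deviations of same-numbered libraries correlated by 0.150, 0.298, 0.0739 and 0.0136 for replicates 1 to 4. The best-correlated DKO library was replicate 1 for WT replicate 1, replicate 2 for WT replicate 2, and replicate 5 for WT replicates 3 and 4. These values do not settle whether the samples were paired. The block called 0 genes in all. Genes at a few counts per library, such as *Itga2*, could not be tested at this depth.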
